A study of Mus musculus with 270 samples.

Results

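Skeletal muscle of 8 male wild-type C57BL/6J mice aged 8 months (8 M) was set against skeletal muscle of 7 male wild-type C57BL/6J mice aged 3 months (3 M), 15 of the 45 muscle libraries and of the 270 libraries of the series. The mice carried no transgene and received no treatment, and all ages came from 1 cohort of the same supplier. Each library was poly(A) RNA from frozen, pulverized muscle of 1 mouse, so no library was a pool of animals. The labels do not say which muscle was taken, and bulk powder holds fibres of every type together with vessel, nerve, connective tissue and blood. A mouse of 3 M is a young adult and a mouse of 8 M a mature adult, and the comparison asks whether muscle expression had already moved by 8 M. Of 51810 genes in the table, 31502 were above 0 in at least 1 muscle library. A gene was tested if 5 or more muscle libraries had 10 or more normalized counts of it, which left 17430 genes.

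A normalized count is the number of reads on a gene divided by a scaling factor of its library. Every difference is the mean of log2(normalized count + 1) at 8 M minus that at 3 M, so 1 is a doubling of a well-expressed gene, and low genes are understated. The p-values came from limma over all 45 muscle libraries, and adjusted p-values from the Benjamini-Hochberg method over all genes tested. In bulk samples, fewer cells of a type and less RNA per cell cannot be told apart.

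Adult limb muscle of the mouse is built mostly of fast fibres, whose speed depends on the myosin heavy chain they carry: *Myh4* for type 2B, *Myh1* for 2X, *Myh2* for 2A and *Myh7* for slow fibres. Fibre growth is driven by insulin-like growth factors and held back by myostatin, and satellite cells marked by *Pax7* supply new nuclei. Growth hormone reaches muscle in pulses in male mice. It acts through the kinase JAK2 and the transcription factor STAT5, which switches on *Cish* and other SOCS genes, whose proteins then damp the same pathway.

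*Cish* had the largest difference of all genes tested. The mouse genome (RefSeq, GRCm38.p6) at its start site, chr9:107296539-107296688 on the plus strand, from 120 bases before to 30 bases after the annotated start, is shown because STAT5 is its known regulator. The capitals mark matches to TTCNNNGAA, a palindrome that STAT factors bind and that reads alike on both strands. Counting that start base as 1, they begin at bases 1 and 12. The gene annotation used below for gene positions begins *Cish* at 107296026, before this stretch, so the 2 annotations place its start differently. This motif was found in 2288 of 27025 promoters of 300 bases (8.47%), and 2 or more matches in 0.463%. A match is a description of the sequence and not a measured binding site.
Cish: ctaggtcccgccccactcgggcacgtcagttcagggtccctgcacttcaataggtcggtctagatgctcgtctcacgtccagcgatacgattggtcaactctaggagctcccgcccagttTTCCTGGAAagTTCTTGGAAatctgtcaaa

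*Chac1* encodes an enzyme that breaks down glutathione and is a known target of the ATF4 and CHOP branch of the stress response. Part of its promoter, chr2:119350992-119351141 on the plus strand (GRCm38.p6), is shown for the sequence that ATF4 can bind. The capitals mark the only match to TGATGCAA on either strand of the 300 bases, lying on the minus strand, with its first base 193 bases before the start. This motif was found in 251 of 27025 promoters (0.929%).
Chac1: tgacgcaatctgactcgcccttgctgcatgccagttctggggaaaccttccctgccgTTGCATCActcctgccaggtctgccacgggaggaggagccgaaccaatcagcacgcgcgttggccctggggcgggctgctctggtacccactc

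The 15 libraries held 8066797 to 15874132 reads. The muscle fibre list, with *Acta1*, *Ckm* and *Ttn*, summed to 165600 to 224000 RPM (reads scaled to an equal library size) at 3 M and 132500 to 199300 at 8 M, so the tissue label held in each library. The cardiomyocyte list summed to 110.6 to 193.2 RPM at 3 M and 92.6 to 644.5 at 8 M. Satellite cell markers summed to 27.82 to 64.07 at 3 M and 37.93 to 57.5 at 8 M, and macrophage markers to 87.41 to 309.2 and 124.7 to 208.7. No member of these lists reached an unadjusted p of 0.05. Among the 45 muscle columns, only that of mouse c1383 of 8 M has a name ending in the letter b, which no label explains. This mouse stood apart. It had the lowest fibre list, 26146 genes detected, and kidney tubule markers at 230 RPM where the other 14 libraries had 1.49 to 8.42. The kidney gene *Kap* was at 973 normalized counts in it against a median of 16.98 over the 8 mice of 8 M, and the heart gene *Myh6* at 2279 against 83.69. The first principal component of all 45 muscle libraries held 40.3% of the variance. On it, mouse c953 of 3 M and mouse c1383 lay far from the rest of the 15 libraries, at -121.7 and -120.8. Libraries of other ages lay further out, down to -146 at 14 M and -167.9 at 26 M. Mouse c953 had the highest adipocyte list at 8281 RPM, against 1070 to 3950 in the other 6 mice of 3 M. Where the call of a named gene was lost without mouse c953 or mouse c1383, the value without it is given beside the gene. The sign of the first principal component of heart (30.5% of its variance) also divides the 45 mice into 2 sets of 24 and 21. Set 1 held 4 mice of 3 M and 4 of 8 M, and set 2 held 3 and 4. The labels name no such sets, but in the order of the sample list the 24 mice of set 1 come before the 21 of set 2. The main fit did not include the sets. Values within them are given for the named genes whose differences in the 2 sets were more than 1 apart and for some others.

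At 8 M, 0 of 17430 genes (0%) differed from 3 M at an adjusted p of 0.05 by limma, with a smallest adjusted p of 1. At an unadjusted p of 0.05, 347 genes (1.99%) passed, 162 higher at 8 M (0.929%) and 185 lower (1.06%). Where no gene differs, a share of 0.05 of the genes would pass on average. The share of 1.99% is below that, so the 347 genes are no surplus over it. Genes vary together and the count moved with the fit, to 498 with the sets of mice as a covariate and 612 with array weights. The share therefore does not say how many genes differ. The test of the recovered reads by edgeR gave 0 adjusted and 328 unadjusted calls, of which 63.7% were higher at 8 M against 46.7% in limma. DESeq2 gave 0 adjusted and 380 unadjusted calls, with a smallest adjusted p of 0.4565. Of all genes tested, 49.4% had a positive difference and the median difference was -0.0029. The named differences that follow are therefore the leading estimates of a comparison in which no gene passed the adjusted threshold. Their adjusted p was 1 in each case, and the p-values printed beside them are unadjusted.

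The data bound how large the unseen differences can be. The 95% confidence interval lay within 1.5-fold in both directions for 7120 genes (40.8%), within 2-fold for 11362 genes (65.2%) and within 4-fold for 16184 genes (92.9%). Precision followed expression level. In the 5810 genes of highest mean count, the interval of 98% lay within 2-fold and the median half-width was 1.27-fold. In the 5810 genes of lowest mean count, between 1.76 and 30.16 normalized counts, only 14.5% lay within 2-fold and the median half-width was 2.25-fold. The estimate exceeded 2-fold in 228 genes and 4-fold in 1 gene, *Cish*.

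**Figure D1:**
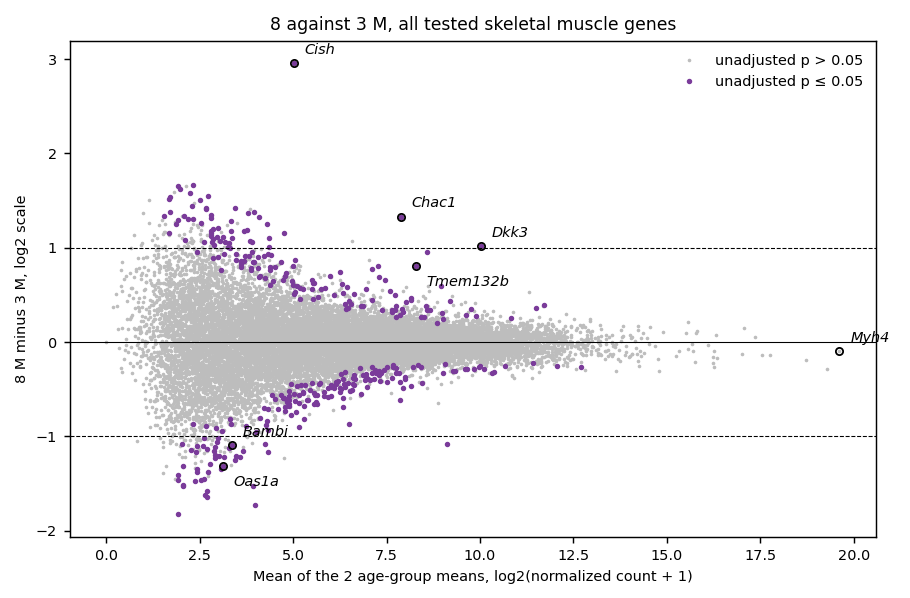
Each point is 1 of the 17430 genes tested, with the mean of its 3 M and 8 M levels on the x axis (log2 of normalized count + 1) and the difference on the y axis (log2, 8 M minus 3 M), and dashed lines at 2-fold. Purple points are the 347 genes with an unadjusted p up to 0.05, ringed genes are named, and *Cish* lies highest at 2.96 while points spread widest at the low-count end.

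*Cish*, the inhibitor of cytokine and growth hormone signalling described above, was at 1.24, 1.26, 2.40, 12.16, 15.65, 47.0 and 157.7 normalized counts in the 7 mice of 3 M. It was at 13.26, 45.74, 79.08, 103.8, 106.0, 109.1, 244.2 and 269.5 in the 8 mice of 8 M. The groups overlap. Mouse c953 of 3 M was above 6 of the 8 mice of 8 M, and mouse c2295 of 8 M was below 3 mice of 3 M. The difference was 2.96 (SE 0.80, unadjusted p = 0.00059) on the log2 scale, with a 95% interval of 1.34 to 4.57. It ranged from 2.56 to 3.58 when each mouse was left out in turn, and was 2.63 within set 1 and 3.29 within set 2.

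At other ages *Cish* did not continue in 1 direction. Against a median of 104.9 at 8 M, the mice aged 14 months had 19.41, and the medians were 55.94 and 15.07 in those aged 20 and 26 months. Mice of 3 M and 5 M had medians of 12.16 and 14.18. The values within an age spanned from 4.93 to 130.7 at 5 M, from 13.26 to 269.5 at 8 M and from 5.245 to 97.4 at 14 M. At 20 M they spanned from 6.56 to 119.3, so neighbouring ages overlap, 8 M included. The difference of 14 M from 8 M was -2.13 (unadjusted p = 0.0067), a comparison that shares the mice of 8 M.

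Other members of the same family were looked at after the values of *Cish* were seen. *Socs1*, which inhibits JAK kinases, had a median of 5.61 normalized counts at 3 M and 17.33 at 8 M, with a difference of 1.42 (SE 0.70, unadjusted p = 0.048). Of the 15 fits that left out 1 mouse, 11 gave *Socs1* a p above 0.05, among them that without mouse c1383 (1.46, unadjusted p = 0.051). *Socs2*, an inhibitor of growth hormone receptor signalling, had medians of 218 and 297.8 and a difference of 0.58 (unadjusted p = 0.059). *Cish* and *Socs1* were highest in mouse c953 among the mice of 3 M, highest in mouse c1457 among those of 8 M and lowest in mouse c2295 of 8 M among that age. *Chac1* had the same 3 mice at these places. *Socs3* differed by 0.40 (unadjusted p = 0.42), the growth hormone receptor gene *Ghr* by 0.04 and *Stat5b* by -0.03. *Bcl6*, a gene that STAT5 represses, differed by 0.0033 (unadjusted p = 0.99). *Igf1*, the growth factor gene that growth hormone induces, had medians of 646.1 and 657.8 and a difference of -0.08 (unadjusted p = 0.68).

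*Tmem132b* (chromosome 5, 125531774 to 125792583, GRCm38 gene annotation), which encodes a membrane protein, had the smallest p among named protein-coding genes. It lay between 106.9 and 404.2 normalized counts at 3 M (median 231.5) and between 253.9 and 530.9 at 8 M (median 434.1). Of the 8 mice of 8 M, 7 were at 380.1 or above, a level that 1 mouse of 3 M reached. The difference was 0.81 (SE 0.21, unadjusted p = 0.00036), or 0.62 to 0.94 when each mouse was left out. Mice of 5 M had a median of 266, those of 14 M one of 434.2, and the 2 oldest groups 468.7 and 391.8. In the mice of 14 M against those of 5 M, none of which is in the comparison of 8 M with 3 M, the difference was 0.62 (unadjusted p = 0.0021, adjusted p = 0.9999).

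*Dkk3* (chromosome 7, 112116017 to 112159057), a secreted member of the Dickkopf family, lay between 490.6 and 1233 normalized counts at 3 M (median 799.5) and between 611.6 and 7147 at 8 M (median 1293). A single mouse of 8 M, c3662, gave the value of 7147, and the next was 1934. The difference was 1.02 (SE 0.32, unadjusted p = 0.0029). Without that mouse it was 0.70 (unadjusted p = 0.015). It was 1.61 in set 1 and 0.44 in set 2. Medians at the 3 later ages were 1128, 626 and 460.1.

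The other 9 of the 12 named genes of smallest p that were higher at 8 M had p up to 0.0096. *Mid2*, a ubiquitin ligase of microtubules, had medians of 70.68 and 101.4 normalized counts and a difference of 0.62, with 0.89 in set 1 and 0.27 in set 2. *Mapk11*, the p38 beta kinase, had medians of 18.02 and 28.54 and a difference of 1.33, which was 0.76 (unadjusted p = 0.040) without mouse c940 of 3 M. Its difference was 2.39 in set 1 and -0.02 in set 2. *Rhou*, a small GTPase of the cytoskeleton, had medians of 374.4 and 584.1 and a difference of 0.60. The remaining 6 were *Spats2*, the interferon-inducible *Trim30d*, the tight junction gene *Cldn19*, the calcium channel subunit gene *Tmem37*, *Atcay* and *Ifitm10*, with differences from 0.50 for *Tmem37* to 1.25 for *Atcay*. Without mouse c953 of 3 M, *Cldn19* was at 0.72 (unadjusted p = 0.062), and without mouse c1190 of 3 M, *Ifitm10* was at 0.54 (unadjusted p = 0.0505), both p-values above 0.05. *Cldn19* was at 2.01 in set 1 and 0.18 in set 2, and *Trim30d* at 1.02 and 0.21. Without both c953 and c1383, *Trim30d* was at 0.48 (unadjusted p = 0.054). *Cldn19* is a gene of Schwann cells, and the summed nerve markers were 95.31 to 277.7 RPM at 3 M and 104.6 to 284.6 at 8 M. *Trim30d* has near-identical relatives, so its reads may be shared with them.

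The 12 named genes of smallest p that were lower at 8 M had p from 0.0011 to 0.0068. *Fam151b* led them, with 57.08 to 133.4 normalized counts at 3 M (median 64.88) and 37.34 to 63.31 at 8 M (median 48.71), a difference of -0.58 (SE 0.17). Within sets it was -0.78 and -0.31. *Bambi*, a decoy receptor that blocks TGF-beta and BMP signalling, lay between 7.83 and 26.42 at 3 M and between 2.65 and 12.17 at 8 M, with medians of 13.10 and 7.31 and a difference of -1.10 (SE 0.32). The 2 groups overlap in both genes.

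*Oas1a*, an interferon-induced sensor of double-stranded RNA, had medians of 12.61 and 6.88 and a difference of -1.32 (SE 0.42, unadjusted p = 0.0030). It was at 0 in 1 mouse of 8 M. *Batf3*, a transcription factor of dendritic cells, had medians of 11.32 and 4.21 and a difference of -1.21, with -1.76 in set 1 and -0.57 in set 2. *Wfdc17*, a gene of activated macrophages, had medians of 5.41 and 3.03 and a difference of -1.34. *Ctsk*, the collagen-cutting protease cathepsin K, had medians of 59.52 and 35.39 and a difference of -0.65. No gene of the macrophage, T cell, B cell, neutrophil or mast cell marker lists reached an unadjusted p of 0.05, and those counts stand beside 1.99% of all genes. *Mcm10*, a factor of DNA replication, had medians of 9.36 and 1.52 and a difference of -1.47. It was at 0 in 2 mice of 8 M, yet its highest value of both groups, 15.25, was also at 8 M, against 10.95 at 3 M. *Fat4*, *Prmt6*, *Trmt44* and the zinc finger genes *Zfp276* and *Zfp182* differed by -0.51 to -0.78, and *Prmt6* was at -1.26 in set 1 and -0.24 in set 2.

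The values of 8 M and 3 M did not overlap in 1 of 17430 genes (0.00574%). That gene, *Sap30bp* (chromosome 11, 115933282 to 115966725), encodes a partner of a transcriptional repressor complex. It lay between 166.1 and 184.0 normalized counts in the 7 mice of 3 M and between 129.3 and 151.8 in the 8 mice of 8 M. The difference of -0.31 (SE 0.11, unadjusted p = 0.0073) was small, and its separation came from a narrow spread within both groups. It was -0.32 within set 1 and -0.30 within set 2. At 5 M its mice lay on both sides of the gap between those groups.

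**Figure D2:**
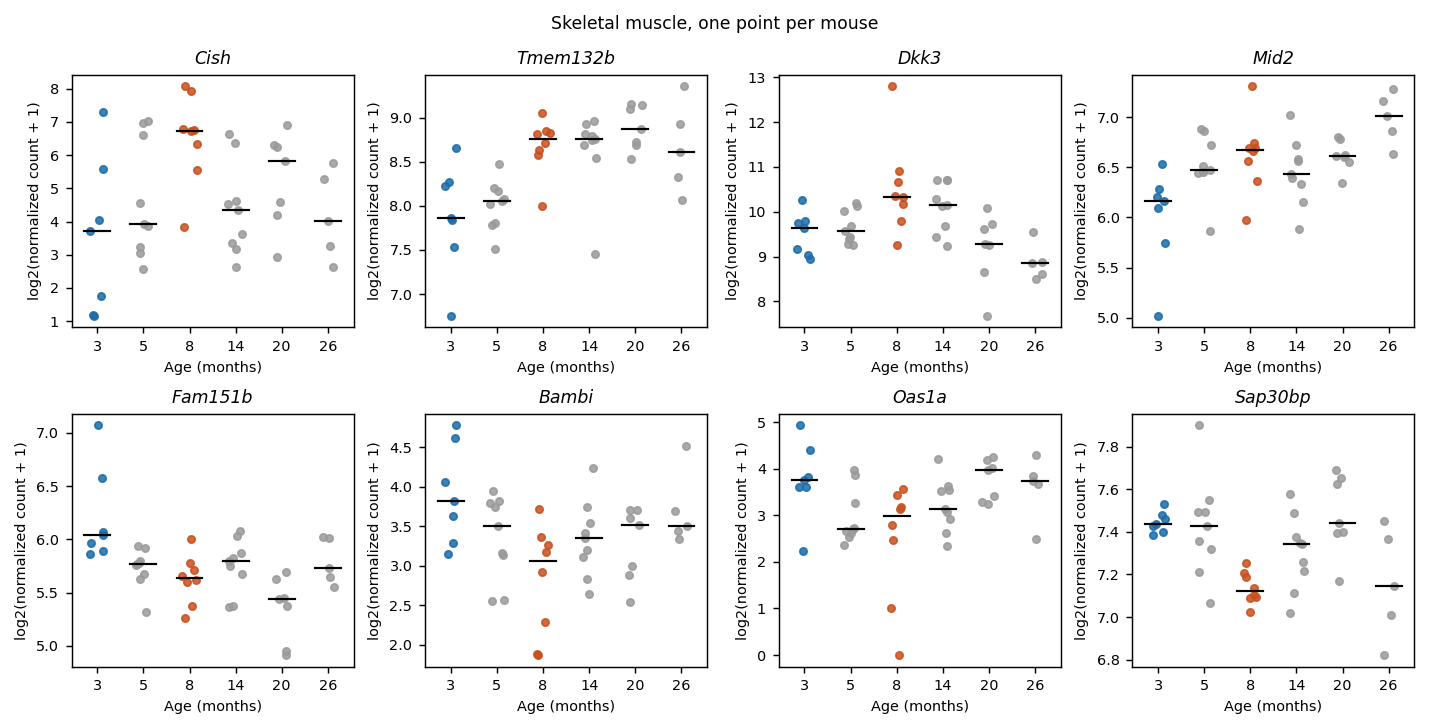
Each panel plots 1 gene in all 45 muscle libraries, with age in months on the x axis and log2(normalized count + 1) on the y axis, 1 point per mouse, bars at the median, and 3 M in blue, 8 M in orange and other ages in grey. *Cish* is highest at 8 M and lower again at 14 M, *Tmem132b* stays near its 8 M level at 14 and 20 M, and *Sap30bp* alone shows a gap between the 3 M and 8 M points.

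Predicted genes and pseudogenes supplied 88 of the 347 genes and 2879 of the 17430 tested. The smallest p of all belonged to the ribosomal pseudogene *Rpl23a-ps3*, at -0.61 (unadjusted p = 0.00023), whose reads may be shared with its parent gene and relatives.

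Contractile genes showed no call. *Myh4* lay between 545300 and 1235000 normalized counts at 3 M (median 881300) and between 399900 and 1012000 at 8 M (median 855900), with a difference of -0.10 (95% interval -0.85 to 0.65). *Myh2* had medians of 20530 and 18540 and a difference of -0.15, *Myh1* medians of 3677 and 2968 and a difference of -0.21, and *Myh7* medians of 547.1 and 571.6 and a difference of -0.65 (SE 0.60, unadjusted p = 0.29). The sign for *Myh4*, *Myh2* and *Myh1* turned under other tests or without single mice, and no direction is given for them. None of the 14 fast fibre genes reached an unadjusted p of 0.05, and the list had a median difference of -0.15 against -0.0029 for all genes. It had 14 negative and 0 positive differences in the main fit, and 10 and 4 within set 1. Of 12 slow fibre genes, 1 was higher at an unadjusted p of 0.05 and 0 lower, beside 0.929% and 1.06% of all genes tested. That gene was *Sln*, for sarcolipin, which uncouples the calcium pump SERCA. It was low, with medians of 4.96 normalized counts at 3 M and 10.08 at 8 M and a difference of 1.10 (SE 0.47, unadjusted p = 0.025). Mice of 5 M and 14 M had medians of 10.32 and 9.14, and the 2 oldest groups 41.51 and 87.47. Without mouse c953 of 3 M the difference of *Sln* was 0.71 (unadjusted p = 0.124), and 2 of the 15 fits that left out 1 mouse had p above 0.05. It was 1.33 in set 1 and 0.83 in set 2.

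Regulators of growth and innervation also showed little. *Mstn*, for myostatin, lay between 763.4 and 969.5 normalized counts at 3 M and between 601.3 and 969.3 at 8 M, with a difference of -0.09 (95% interval -0.41 to 0.22). *Igf2* differed by 0.31 (unadjusted p = 0.17), *Igf1r* by 0.26 (unadjusted p = 0.090) and *Fst*, for the myostatin antagonist follistatin, by 0.14 (unadjusted p = 0.54). Of the 24 genes of the myostatin and TGF-beta list and the 24 of the growth factor and imprinted gene list, 0 reached an unadjusted p of 0.05. *Pax7* differed by -0.18 (unadjusted p = 0.43), *Myog* by -0.33 (unadjusted p = 0.56) and the adult acetylcholine receptor subunit gene *Chrne* by -0.23 (unadjusted p = 0.33). The 17 tested genes each of the myogenic and neuromuscular junction lists held 0 at an unadjusted p of 0.05, which 1.99% of all genes tested reached. Of 21 denervation and atrophy genes 1 was lower, beside 1.06% of all genes tested. The lower gene was *Gadd45b*, at medians of 252.6 and 217.8 normalized counts and -0.49 (unadjusted p = 0.029), with p above 0.05 in 5 of the 15 fits that left out 1 mouse. *Ostn*, which encodes the muscle-secreted peptide osteocrin and was picked after its values were seen, had medians of 102 and 218.1 and a difference of 0.81 (SE 0.31, unadjusted p = 0.011), with the highest value of all, 409.2, in mouse c1114 of 3 M. It was 1.26 in set 1 and 0.21 in set 2.

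In the matrix list, 0 of 34 genes reached an unadjusted p of 0.05, beside 1.99% of all genes tested. The interval of all 34 lay within 2-fold. *Col1a1* had medians of 1106 and 1126 normalized counts and a difference of -0.19 (unadjusted p = 0.39). *Col3a1* lay between 2397 and 4722 at 3 M and between 1960 and 2756 at 8 M, with a difference of -0.38 (SE 0.28, unadjusted p = 0.19). The list had 28 negative and 6 positive differences, or 18 and 16 without mouse c1030 of 3 M, which had the highest fibroblast markers at 2248 RPM.

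The counts of the stress, immune, cell cycle and clock lists stand beside 0.929% of all genes tested that were higher and 1.06% that were lower at an unadjusted p of 0.05. In the list of endoplasmic reticulum and amino acid stress, 2 of 18 genes were higher at an unadjusted p of 0.05 and 0 lower. *Chac1* lay between 33.97 and 705.2 normalized counts at 3 M (median 160) and between 128 and 695.3 at 8 M (median 413.5), with a difference of 1.33 (SE 0.52, unadjusted p = 0.013). Mouse c953 of 3 M had the highest value of both groups. Without mouse c2908 of 3 M the difference was 0.98 (unadjusted p = 0.063). *Atf5*, a transcription factor of the same response, had medians of 222 and 292.2 and a difference of 0.42 (unadjusted p = 0.023). Without mouse c953 it was 0.38 (unadjusted p = 0.05055), and 4 of the 15 fits that left out 1 mouse had p above 0.05. It was 0.69 in set 1 and 0.12 in set 2. *Atf4* itself differed by 0.11, *Ddit3* by -0.03, *Trib3* by -0.12 and *Asns* by -0.36, and none of these 4 reached an unadjusted p of 0.05. In the interferon list, 2 of 23 genes were higher and 1 lower. *Ifit1* (medians 19.84 and 31.91) differed by 0.85 (unadjusted p = 0.011) and the interferon-inducible GTPase gene *Iigp1* (medians 154.1 and 243.3) by 0.54 (unadjusted p = 0.021), while *Oas1a* was lower as given above. *Ifit1* was at 0.68 (unadjusted p = 0.051) without both c953 and c1383, and *Iigp1* at 0.42 (unadjusted p = 0.073) without mouse c1190 of 3 M. *H2-Q7*, a class I histocompatibility gene with near-identical relatives that may share its reads, was the 1 of 16 antigen presentation genes at an unadjusted p of 0.05, with medians of 61.37 and 73.76 and a difference of 0.70 (unadjusted p = 0.011), or 0.47 (unadjusted p = 0.068) without mouse c940 of 3 M.

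In the cell cycle list 1 of 27 genes was higher and 1 lower at an unadjusted p of 0.05. *Rrm2*, the small subunit of ribonucleotide reductase, had medians of 4.68 and 11.20 normalized counts and a difference of 1.03 (unadjusted p = 0.048). It was 0.98 (unadjusted p = 0.071) without mouse c953 and 0.95 (unadjusted p = 0.077) without mouse c1383, and 9 of the 15 fits that left out 1 mouse had p above 0.05. Within sets it was 1.57 and 0.44. *Pcna*, the sliding clamp of DNA replication, had medians of 191.2 and 140.1 and a difference of -0.35 (unadjusted p = 0.027), or -0.24 (unadjusted p = 0.10) without mouse c1383 and -0.32 (unadjusted p = 0.052) without mouse c953. In the p53 and senescence list 1 of 17 genes was lower. *Bax*, a promoter of cell death, had medians of 52.53 and 39.19 and a difference of -0.57 (unadjusted p = 0.012). *Cdkn1a*, for the cell cycle inhibitor p21, had medians of 156.2 and 162.3 and a difference of 0.36 (unadjusted p = 0.13), or 0.09 without mouse c953, which was at 41.61. *Cdkn2a* was at 0 to 15.33 at 3 M and 0 to 29.59 at 8 M, with medians of 3.92 and 4.16.

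Of 17 clock genes, 1 was higher at an unadjusted p of 0.05. *Hlf*, a clock output transcription factor, had medians of 216.8 and 250.2 normalized counts and a difference of 0.35 (unadjusted p = 0.047). It was 0.24 (unadjusted p = 0.174) without mouse c953, and 8 of the 15 fits that left out 1 mouse had p above 0.05. *Arntl* differed by -0.23 (unadjusted p = 0.19), *Nr1d1* by 0.19 (unadjusted p = 0.53), *Dbp* by 0.30 (unadjusted p = 0.42), *Per1* by 0.57 (unadjusted p = 0.10) and *Per2* by -0.01 (unadjusted p = 0.97). *Dbp* was at 0.89 in set 1 and -0.51 in set 2. The hour of each dissection is not in the labels.

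The study names 20 genes for muscle, a list chosen on these samples. At 8 M, 1 was higher and 1 lower at an unadjusted p of 0.05, with a median difference of -0.07, beside 0.929% and 1.06% of all genes tested. *Gpx3*, for the secreted glutathione peroxidase, had medians of 2924 and 3695 normalized counts and a difference of 0.39 (unadjusted p = 0.042). It was 0.32 (unadjusted p = 0.11) without mouse c953 and 0.29 (unadjusted p = 0.125) without mouse c1383. *Ccl8*, a monocyte chemokine gene, had medians of 4.47 and 2.09 and a difference of -1.08 (unadjusted p = 0.046), or -0.87 (unadjusted p = 0.11) without mouse c1457 of 8 M. Both genes had p above 0.05 in 8 of the 15 fits that left out 1 mouse. The polyamine genes *Odc1*, *Amd1* and *Smox* differed by 0.04, -0.09 and -0.24, and the fuel genes *Pdk4* and *Ucp3* by 0.12 and -0.02, with p from 0.37 to 0.94. *Pdk4* was at 0.89 in set 1 and -0.71 in set 2. The interval of each of the 5 lay within 2-fold in both directions.

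**Figure D3:**
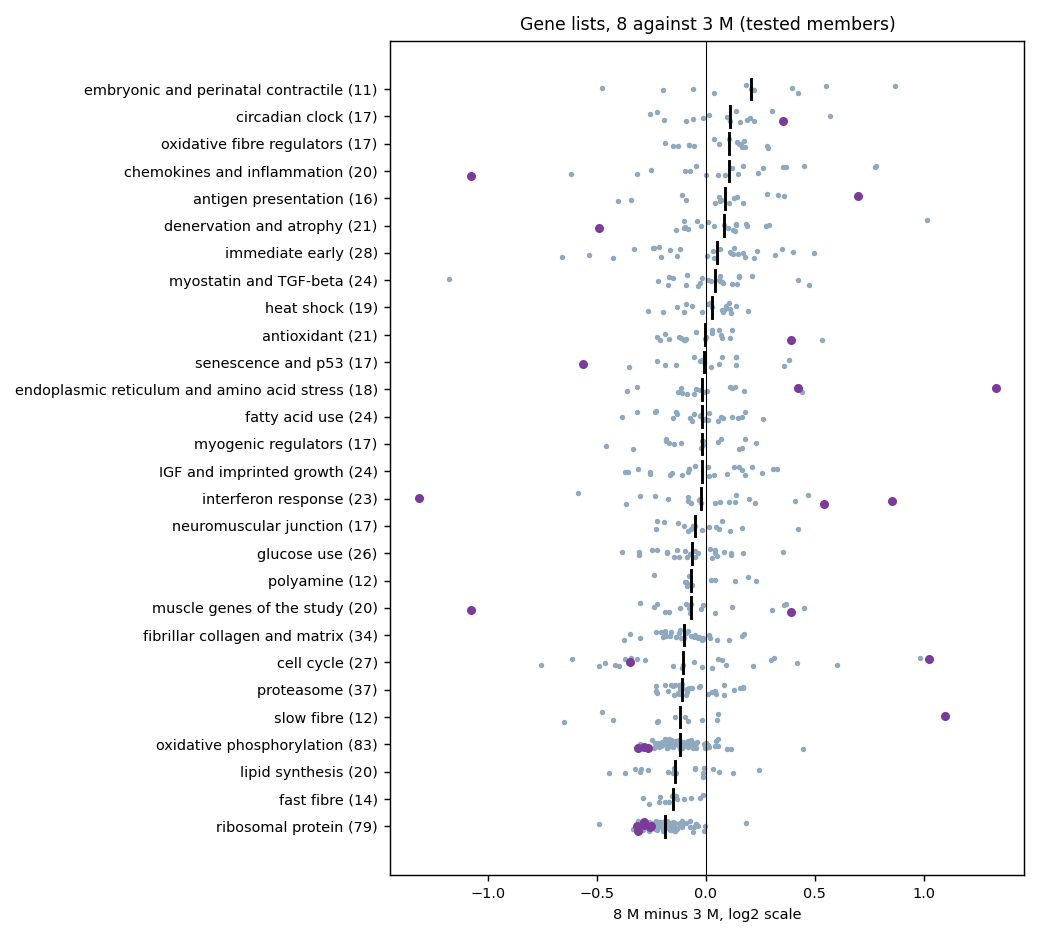
Each row is a gene list with its number of tested members, each dot a member, and the x axis its difference (log2, 8 M minus 3 M). Purple dots had an unadjusted p up to 0.05 and black bars are list medians, and the ribosomal protein list has the lowest median of the lists drawn, -0.19, with its members close together.

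Genes of protein synthesis and respiration lay mostly below zero by small amounts. Of 79 ribosomal protein genes, 78 had a negative difference, with a median of -0.19, and 6 were lower at an unadjusted p of 0.05 and 0 higher. Of all genes tested, 1.06% were lower and 0.929% higher at that p, and 49.4% had a positive difference. *Rps4x* had medians of 1514 and 1206 normalized counts and a difference of -0.32 (SE 0.12, unadjusted p = 0.014), and *Rpl12* medians of 1249 and 1000 and a difference of -0.28 (unadjusted p = 0.031), or -0.22 (unadjusted p = 0.088) without mouse c1383. Of 83 nuclear genes of oxidative phosphorylation, 73 were negative, with a median of -0.12, and 3 were lower at an unadjusted p of 0.05 and 0 higher, beside the same shares of all genes. *Ndufa11*, of complex I, had medians of 665.9 and 609.2 and a difference of -0.31 (unadjusted p = 0.011), and *Atp5c1*, of the ATP synthase, medians of 7189 and 6309 and -0.27 (unadjusted p = 0.034). *Atp5c1* was at -0.18 (unadjusted p = 0.117) without mouse c1383. The shift was not particular to these 2 lists. Of 37 proteasome genes, 27 were negative and 10 positive, with a median of -0.11 and 0 at an unadjusted p of 0.05, and all 14 fast fibre genes were negative. The genes of a list share libraries and vary together, so these counts are not independent observations. Many ribosomal protein genes have processed copies in the genome with which reads may be shared.

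The shift was unequal between the sets of mice. Within set 1 the ribosomal list had 41 positive and 38 negative differences and a median of 0.0070, and within set 2 it had 3 and 76 and a median of -0.35. For oxidative phosphorylation the median was 0.068 in set 1 and -0.32 in set 2. Mouse c1383, whose library held transcripts of kidney and heart, belonged to set 2. Without it the ribosomal median was -0.09, with 8 positive and 71 negative, and that of oxidative phosphorylation was -0.05, with 26 and 57. Without both c953 and c1383 the ribosomal median was -0.07. The part of that library and of the sets in the shift was not tested. *Gapdh*, often taken as a reference gene, differed by -0.38 (unadjusted p = 0.065), or -0.24 (unadjusted p = 0.22) without mouse c1383.

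**Figure D4:**
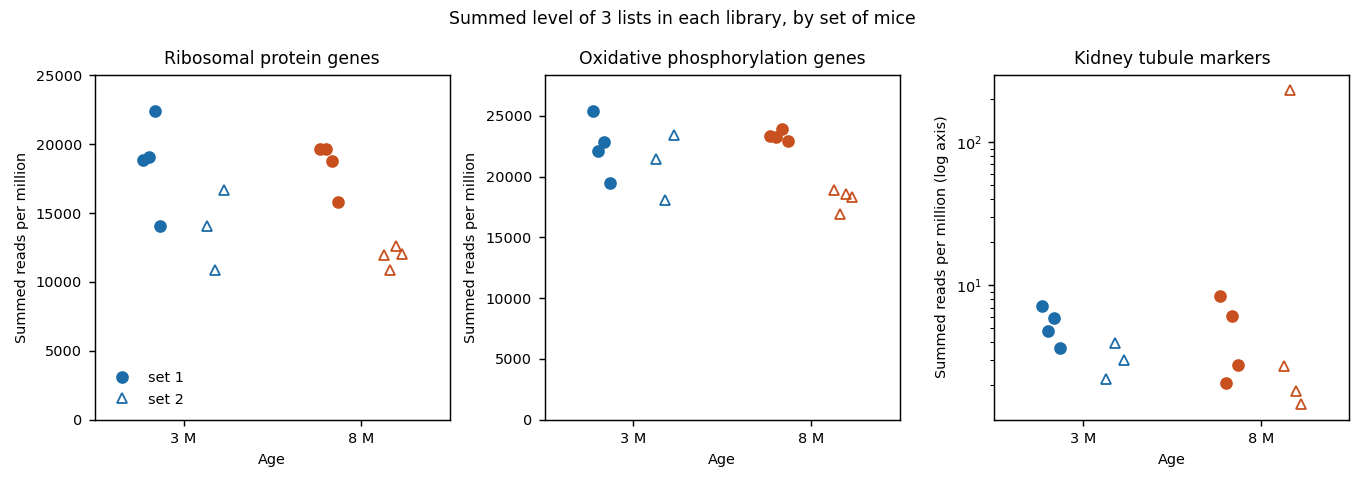
Summed RPM of 3 gene lists (y axis, log scale for the kidney markers) in each library of 3 M and 8 M (x axis), with filled circles for set 1 and open triangles for set 2. Ribosomal protein sums at 3 M span 14060 to 22380 in set 1 and 10890 to 16680 in set 2. At 8 M they span 15810 to 19670 in set 1 and 10840 to 12600 in set 2, and 1 library of 8 M stands at 230 for kidney markers.

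Other mice gave a check on direction, but not all of their libraries were free of other tissue. Of the 9 libraries with transcripts of other tissues, 2 were of 5 M, 2 of 14 M and 2 of 20 M, with 1 of 8 M and 0 of 3 M. The cardiomyocyte list reached 305.3 RPM at 5 M and 2821 at 14 M, as it reached 193.2 at 3 M and 644.5 at 8 M. The part of these libraries in the matching signs was not tested. Of the 347 genes with p up to 0.05, 216 (62.2%) had the same sign in 14 M against 5 M, where 54.2% of all genes tested had matching signs in the 2 comparisons. At p up to 0.05 in that comparison, which 2.13% of all genes reached, 14 had the same sign and 5 the opposite one. Among the 24 named genes, *Tmem132b* had the same sign there, while *Zfp276* (0.40, unadjusted p = 0.040) and *Zfp182* (0.44, unadjusted p = 0.022) had the opposite one. Of the same 347 genes, 187 (53.9%) kept their sign in 20 M against 14 M, against 49.3% of all genes tested.

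In the later step from 14 M to 20 M, 34 genes (0.195%) passed an adjusted p of 0.05, 15 higher at 20 M and 19 lower. These genes were small at 8 M against 3 M. The median difference of the 15 was 0.13 at 8 M, against 1.10 at 20 M, and that of the 19 was -0.09, against -1.02. At 8 M, 2 of the 34 had p up to 0.05. *Sln* was higher in both steps (1.10, then 2.24), the first of which was 0.71 (unadjusted p = 0.124) without mouse c953, and *Ccl8* was lower at 8 M and higher at 20 M (-1.08, then 2.27). The interval at 8 M lay within 2-fold for 12 of the 15 and 18 of the 19. *Ucp3*, which differed by -0.02 at 8 M (95% interval -0.46 to 0.43), differed by -1.10 at 20 M.

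Heart and testis of the same mice were compared in the same way. Their tables were scaled separately, so differences between organs are differences of within-organ differences. At an unadjusted p of 0.05, 484 of 15270 genes (3.17%) differed between muscle and heart and 284 of 15720 (1.81%) between muscle and testis, and 0 passed the adjusted threshold in limma in either, with a smallest adjusted p of 0.9998. Within each organ at 8 M against 3 M, 3.12% of all genes tested in heart and 3.75% in testis had an unadjusted p up to 0.05. Of the 24 named genes, 22 were tested in heart, where 0 had p up to 0.05, and 20 in testis, where 2 had. Those 2 were *Mid2*, higher at 8 M by 0.34, and *Mcm10*, lower by 0.30 on the log2 scale. The difference between organs had p up to 0.05 for 15 of 22 genes with heart and 18 of 20 with testis. These genes, *Cish* among them, were chosen by their small p in muscle, which favours such counts.

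*Cish* differed by 0.89 in heart (unadjusted p = 0.11) and by 0.04 in testis, and the muscle difference exceeded these by 2.07 (SE 0.91, unadjusted p = 0.026) and 2.91 (unadjusted p = 0.0023). *Tmem132b* differed by -0.63 in heart (unadjusted p = 0.18) and by 0.01 in testis. *Oas1a* had the smallest p of all genes between muscle and heart, at -1.91 (SE 0.48, unadjusted p = 0.00016), since it differed by 0.60 in heart. *Chac1* differed by 1.21 in heart (unadjusted p = 0.025) and *H2-Q7* by 0.73 in heart (unadjusted p = 0.0017), and the muscle difference minus that of heart was 0.12 (unadjusted p = 0.86) and -0.03 (unadjusted p = 0.93). Other list genes had the opposite sign in heart, among them *Gadd45b* (0.38), *Bax* (0.24), *Ccl8* (0.80) and *Ifit1* (-0.08), each with p above 0.05 there. For these the muscle difference minus that of heart was -0.88, -0.81, -1.88 and 0.93, with unadjusted p from 0.0013 to 0.015. The list genes too were chosen by their p in muscle.

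**Figure D5:**
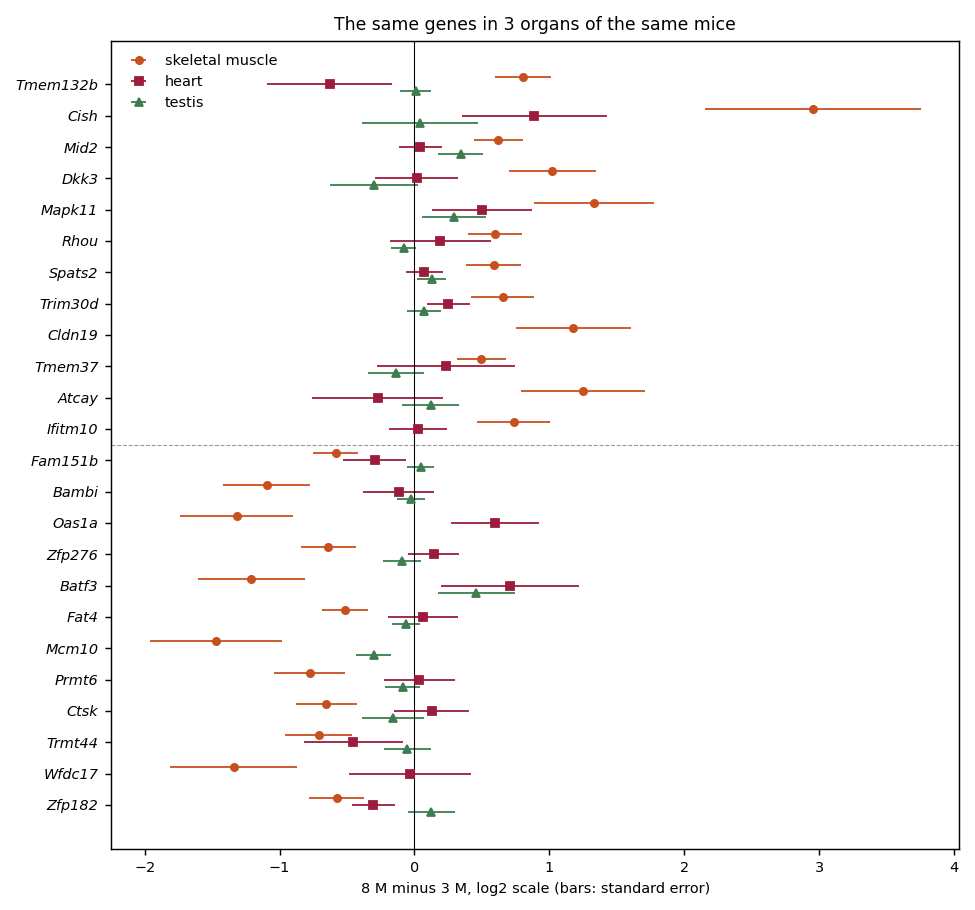
The 24 named genes (rows, those higher at 8 M above the dashed line) with their difference (x axis, log2, 8 M minus 3 M) in skeletal muscle, heart and testis, bars at 1 standard error, and no point where a gene was not tested. Muscle points lie away from zero because they chose the genes, and most heart and testis points lie within 0.5 of zero, with *Cish*, *Tmem132b*, *Oas1a* and *Batf3* in heart among those beyond it.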

How the data were processed

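The authors trimmed single-end reads of polyA RNA libraries (no molecular identifiers), aligned them to GRCm38 with HISAT2 2.1.0, counted them on Ensembl genes with strand information in the alignment, and deposited a signal: gene counts divided by DESeq2 size factors, computed per organ. All 45 muscle columns matched a label, and 0 were unmatched. In each library 100% of values were whole multiples of 1 step, which gave back the reads (tolerance 0.1). Intervals are those of limma and rest on the spread between mice.

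Genes with 10 normalized counts in 5 muscle columns were kept, and log2(value + 1) was fitted by age group with limma 3.58.1 (trended prior, two-sided, R 4.3.3). Mouse was a block between organs. The Benjamini-Hochberg threshold was 0.05. edgeR 4.0.16 and DESeq2 1.42.0 on recovered reads were alternatives. The fit was tested on simulated data.

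The members and gene lists were chosen with earlier results of these data known. Genes named are the 12 of smallest p per direction (no predicted models or pseudogenes), fixed defining genes, list members at p up to 0.05 (the others by counts), the study's muscle genes and genes without overlap, plus those said to be picked afterwards. The 13 mitochondrially encoded genes are listed at 0 throughout and were not tested.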

Additional observations from a re-analysis of the deposited data

Results flagged for a closer look

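A sample was marked where its gap to the nearest other sample of its age exceeded the 95% critical value of Dixon's test. Of 176 groups tested, 20 were marked, and chance marks about 1 in 20. No explanation was tested.

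Mouse c1383 of 8 M gave 8 of the 20. It had 26146 genes detected, 230 RPM for kidney tubule markers, 644.5 for cardiomyocyte markers, 132500 for muscle fibre markers, 1460 normalized counts of the cardiac troponin gene *Tnnt2*, and low values of *Pcna* (82.51), *Ndufa11* (419.7) and *Gapdh* (841.2).

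Mouse c3662 of 8 M stood apart for *Dkk3* (7147 normalized counts, high), *Igf1* (369.8, low) and *Col1a1* (691.4, low). Mouse c2295 of 8 M was low for *Tmem132b* (253.9) and high for macrophage markers (208.7 RPM), and mouse c1364 of 8 M was high for *Ifit1* (78.03 normalized counts).

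At 3 M, mouse c1114 was high for *Tmem37* (310.0) and *Ostn* (409.2 normalized counts), mouse c953 low for *Cdkn1a* (41.61), mouse c2908 low for *Tnnt2* (56.62) and for cardiomyocyte markers (110.6 RPM), and mouse c1030 high for fibroblast markers (2248).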

How the results depend on the processing

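The count of 0 genes at an adjusted p of 0.05 held in every alternative run, from 0 to 0 when 1 mouse was left out, with a smallest adjusted p of 0.3008 over all settings (array weights). The count at an unadjusted p of 0.05 (347) ranged from 312 to 459 without 1 mouse, and was 816 with no filter on low values, 126 with a minimum of 100 normalized counts, 612 with array weights and 620 without the 9 libraries with transcripts of other tissues. It was 498 with the set of mice as a covariate. The higher genes (162) were 429 with no filter, 54 with the filter of 100, 270 with array weights and 265 with the set of mice as a covariate. The lower genes (185) were 387 with no filter, 72 with the filter of 100, 119 by edgeR, 342 with array weights, 116 with only the 15 samples, and 386 without the 9 libraries. Of the 347, 200 were shared with edgeR and 255 with DESeq2. With the 2 libraries c953 and c1383 left out, 352 genes passed, of which 188 were shared.

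Genes that crossed zero had no call. With array weights *Myh2* was 0.017, *Myh1* 0.32, *Myh4* 0.015 and *Ucp3* 0.077. By edgeR *Myh1* was 0.012, *Myog* 0.0016, *Ucp3* 0.070 and *Cdkn2a* 0.20, and by DESeq2 *Myh1* was 0.0080, *Ucp3* 0.045 and *Cdkn2a* 0.10. Without the 9 libraries *Myh4* was 0.038, *Amd1* 0.013 and *Ucp3* 0.098. *Ucp3* was 0.0064 with sets as a covariate and 0.10 without c953 and c1383, and *Per2* was 0.025 after quantile normalization. Leaving out 1 mouse gave -0.48 to 0.091 for *Myh1*, -0.20 to 0.038 for *Myh4*, -0.14 to 0.031 for *Igf1*, -0.040 to 0.13 for *Odc1*, -0.17 to 0.013 for *Amd1*, -0.16 to 0.30 for *Pdk4*, -0.12 to 0.098 for *Ucp3*, -0.63 to 0.076 for *Cdkn2a* and -0.15 to 0.094 for *Per2*. The cause was not tested.

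No paired analysis was possible because each mouse was sampled at 1 age and replicate numbers do not link ages. The alternatives with libraries left out for their markers or their place on the first component, and the interval counts with sets of mice, were chosen after seeing the data. Depth limits low genes, whose intervals were wide.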

Other observations

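*Flvcr1*, a haem and choline transporter gene picked after its values were seen, had medians of 185.5 normalized counts at 3 M and 586 at 8 M and a difference of 0.95 (SE 0.43, unadjusted p = 0.031). It reached 938.5 in 1 mouse of 3 M and 1226 in 1 mouse of 8 M, so the groups overlap widely, and 7 of the 15 fits that left out 1 mouse had p above 0.05. Its difference in 14 M against 5 M was -0.05.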
